A study of Mus musculus with 6 samples.

Results

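The genes described here are the connexins of cochlear gap junctions, *Gjb2*, *Gjb6*, *Gjb1*, *Gja1*, *Gja4*, *Gja5*, *Gjc1* and *Gjc3*, together with the related channel gene *Panx1*. They were picked by gene symbol and are 9 of 51802 symbols listed in bulk RNA-seq of mouse cochleae. For each gene the values of all its transcripts were added up in each of 6 samples. Cochleae came from mice of the C57/BL6J strain background, 2 months old, and were either wildtype (3 samples, replicates 3, 4 and 5) or *Pou4f3(Δ/+)* littermates (3 samples, replicates 1, 2 and 3). The *Pou4f3(Δ/+)* mice carry, in a single germline allele of the hair cell transcription factor gene *Pou4f3*, a knocked-in deletion with a C-to-T change that shifts the reading frame and truncates the protein, as in a form of dominant human deafness. Mice of this strain, wildtype included, also carry the *Cdh23(ahl)* allele of age-related hearing loss. Values of single samples are given in this order of replicates throughout. The RNA was that of whole cochleae, so each value averages over all cell types and over surrounding tissue, and fewer cells of a type cannot be told apart from less RNA per cell.

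Connexins are membrane proteins that assemble into hexameric hemichannels, and hemichannels of neighbouring cells dock to form a gap junction through which ions and small metabolites pass. In the cochlea, supporting cells and the fibrocytes of the lateral wall are joined by gap junctions built mainly of connexin 26 (*Gjb2*) and connexin 30 (*Gjb6*), and loss of either causes deafness. These networks are held to carry potassium away from the hair cells, to spread metabolites and to support calcium waves driven by ATP, whereas pannexin 1 (*Panx1*) forms membrane channels that release ATP and does not usually make gap junctions.

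The docking face of a hemichannel is made by extracellular loops, each held in shape by conserved cysteines. A search of the coding sequences for 3 cysteine codons separated by 6 and then 3 other codons found 1 match in the most abundant coding transcript of each of the 8 connexins and 0 matches in that of *Panx1*. The stretches are shown because they mark what the connexins share and how closely the leading pair resemble each other. They are printed 5′ to 3′ on the coding strand from the GENCODE M21 transcripts of GRCm38, with the cysteine codons in capitals.
Gjb2: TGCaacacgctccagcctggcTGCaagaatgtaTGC
Gjb6: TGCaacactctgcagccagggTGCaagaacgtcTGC
Gjb1: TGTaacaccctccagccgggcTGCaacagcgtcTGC
Gja1: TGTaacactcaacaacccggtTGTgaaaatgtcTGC
Gja4: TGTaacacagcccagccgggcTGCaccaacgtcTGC
Gja5: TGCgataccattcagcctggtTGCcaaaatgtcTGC
Gjc1: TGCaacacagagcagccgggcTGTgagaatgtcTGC
Gjc3: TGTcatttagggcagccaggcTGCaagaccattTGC

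The *Gjb2* stretch lies at chr14:57100558-57100593 on the minus strand, in the second and last exon, and spans codons 53 to 64. The *Gjb6* stretch lies at chr14:57124611-57124646 on the same strand, in the third and last exon, again at codons 53 to 64. These 2 stretches were identical at 30 of 36 bases. Over the 28 pairs of connexins identity ranged from 50% (*Gja1* and *Gjc3*) to 86.1% (*Gjb1* and *Gja4*). The *Gjc3* stretch, at codons 64 to 75, starts later in the protein than those of the other connexins. Between the most abundant coding transcripts of any 2 of the 9 genes, the longest run of identical bases was 26, well under the 150 bases of a read, for *Gja1* and *Gja4*, and it was 20 for *Gjb2* and *Gjb6*.

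*Gjb2* (ENSMUSG00000046352, chr14:57098600-57104702) and *Gjb6* (ENSMUSG00000040055, chr14:57123303-57133611) are neighbours on the minus strand in GRCm38, with 18600 bases and 1 annotated gene between them. Because these neighbours also varied together across the samples, as described further on, the 150 bases ahead of each start are shown, from RefSeq (GRCm38.p6). Capitals mark a GC box, searched as GGGCGG on both strands, a TATA box (TATAAA) or a CCAAT box (CCAAT).
Gjb2, chr14:57104703-57104852, minus strand: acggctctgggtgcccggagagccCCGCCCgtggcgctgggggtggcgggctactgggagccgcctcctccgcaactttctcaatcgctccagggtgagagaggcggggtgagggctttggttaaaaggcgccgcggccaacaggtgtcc
Gjb6, chr14:57133612-57133761, minus strand: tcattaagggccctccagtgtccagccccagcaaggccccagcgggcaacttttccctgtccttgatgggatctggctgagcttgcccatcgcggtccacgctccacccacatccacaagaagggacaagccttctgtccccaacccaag

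Over 250 bases before the start, *Gjb2* held 2 GC boxes and *Gjb6* held 0. A GC box was present in 32.7% of the 32851 RefSeq promoter entries over the same length, a TATA box in 12.4% and a CCAAT box in 33.8%. Neither of the last 2 motifs was found in the 250 bases of *Gjb2* or *Gjb6*. The GC content of these windows was 69.2% for *Gjb2* and 56.8% for *Gjb6*, beside a median of 52.4% over all entries. Of the 9 genes, 8 had a promoter entry, and *Gjc1* had none.

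Summed counts ranged from 14295069 to 17696784 per sample. *Pou4f3* itself had 52 to 97 counts per sample and, with both alleles counted as 1 transcript, gives no check of the genotype labels (log2 fold change -0.06, SE 0.27, adjusted p = 0.966). Markers of cochlear cell types were present, with FPKM (fragments per kilobase of transcript, scaled to a sample's depth) of 2030 to 2828 for the fibrocyte gene *Coch*, 119 to 139 for the supporting cell gene *Epyc* and 8.13 to 10.34 for the hair cell gene *Myo7a*, while the hair cell gene *Cabp2* was at 0 in all 6 samples. Along the first principal component, which held 32.5% of the variance, *Pou4f3(Δ/+)* replicates 1 and 2 lay at 23.2 and 40.2 and all other samples between -21.5 and -11.7. Fold changes that rest on these samples are given with and without them. With both left out 1 *Pou4f3(Δ/+)* sample remains, so the spread then comes from wildtype alone. The labels do not say whether the samples of a genotype came from separate animals, so p-values measure the spread between these samples.

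The wildtype cochlea was dominated by *Gjb2* and *Gjb6*. Levels were compared between genes as FPKM, which is per length of transcript. *Gjb2* stood at 200.9 ± 20.7 FPKM (mean ± SD, n = 3) and *Gjb6* at 165.9 ± 12.4. *Gja1*, which encodes the widely expressed connexin 43, followed at 31.5 ± 2.30. *Gjc3* and *Gjb1*, known from myelinating glia, stood at 9.86 ± 0.683 and 5.24 ± 0.671. The connexins known mainly from vessels and muscle were lowest, with 3.05 ± 0.737 for *Gjc1*, 1.54 ± 0.244 for *Gja4* and 0.517 ± 0.110 for *Gja5*. *Panx1*, which is no connexin, stood at 5.40 ± 0.240, close to *Gjb1*.

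The order *Gjb2*, *Gjb6*, *Gja1*, *Gjc3*, *Gjb1*, *Gjc1*, *Gja4*, *Gja5* was the same in each of the 6 samples. Between neighbours in this order the wildtype sample ranges did not overlap, but for the leading pair they nearly touched. The lowest wildtype value of *Gjb2* was 180.2 FPKM and the highest of *Gjb6* was 179.6, and the ratio of the wildtype means was 1.21, the smallest of the 7 steps. The largest step was from *Gjb6* to *Gja1*, at 5.27 times, followed by *Gja1* to *Gjc3* at 3.19 times and *Gja4* to *Gja5* at 2.99 times. The other 3 steps were 1.72 to 1.97 times.

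**Figure D1:**
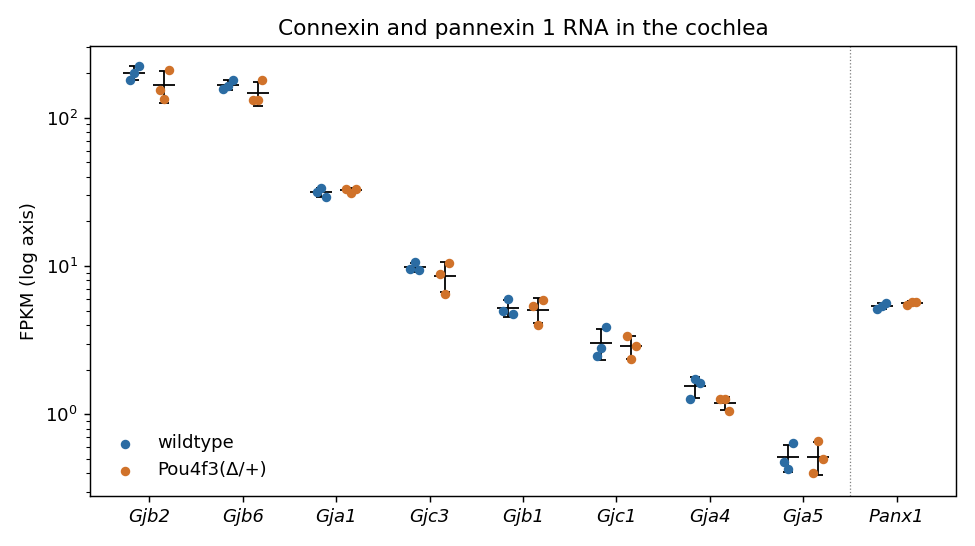
FPKM of the 8 connexins and *Panx1* on a log axis, with a point for each wildtype (blue) and *Pou4f3(Δ/+)* (orange) sample and bars for the mean and SD of 3 samples. The genes fall from 200.9 FPKM for *Gjb2* to 0.517 for *Gja5* in wildtype, and the points of both genotypes overlap for each gene.

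*Gjb2* and *Gjb6* together made up 87.0%, 86.8% and 89.0% of the summed FPKM of the 8 connexins in the wildtype samples. In the *Pou4f3(Δ/+)* samples their share was 84.4%, 85.1% and 87.9%, so the lowest shares were those of the samples that stood apart. *Gja1* made up 6.47% to 8.15% in wildtype and 7.43% to 10.1% in *Pou4f3(Δ/+)*. The other connexins of the mouse added little, since the 8 genes held 99.06% to 99.21% of the FPKM of all listed connexins in each sample.

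Between the genotypes no gene of the group passed the test. In edgeR's quasi-likelihood test on the expected counts 0 of 9 had an adjusted p under 0.05 and 0 had an unadjusted p under 0.05, and DESeq2 called 0 as well. Over all 17136 genes tested, 0% had an adjusted p under 0.05 and 7.64% an unadjusted p under 0.05 in edgeR, and DESeq2 called 0.373%. Among 14 alternative settings an unadjusted p under 0.05 was found in 2 for *Gjb2* and in 1 for *Gjb6*, with no adjusted p under 0.0913. The fitted difference was below 0 for 7 of the 9 genes, with a median log2 fold change of -0.09 beside -0.0027 over all genes, of which 50.6% were lower. Without *Pou4f3(Δ/+)* replicates 1 and 2 it was below 0 for 4 of the 9, with a median of 0.04. On depth-normalised counts (CPM, which are not per length) the genotypes overlapped for all 9 genes, while they did not overlap for 12.7% of all genes in either direction.

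*Gjb2* was at 180.2, 201.0 and 221.5 FPKM in the wildtype samples, and at 153.1, 132.6 and 210.0 in the *Pou4f3(Δ/+)* samples. The *Pou4f3(Δ/+)* samples 1 and 2 lay below each wildtype sample, and the third lay between the 2 highest wildtype values. The group means were 200.9 and 165.2 ± 40.1 FPKM, with a log2 fold change of -0.29 (SE 0.16, adjusted p = 0.664). Without *Pou4f3(Δ/+)* replicate 3 the log2 fold change was -0.48 (adjusted p = 0.0913), and without *Pou4f3(Δ/+)* replicates 1 and 2 it was 0.04.

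*Gjb6* showed the same arrangement of samples. It was at 155.5, 162.6 and 179.6 FPKM in the wildtype samples, and at 130.9, 130.7 and 178.2 in the *Pou4f3(Δ/+)* samples. Again *Pou4f3(Δ/+)* replicates 1 and 2 were below the wildtype samples and the third was within them. The log2 fold change was -0.18 (SE 0.13, adjusted p = 0.731), and it was -0.33 without *Pou4f3(Δ/+)* replicate 3 and 0.09 without replicates 1 and 2.

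*Gja1* did not follow this arrangement. Its values were 31.5, 33.8 and 29.2 FPKM in the wildtype samples and 33.1, 31.2 and 32.8 in the *Pou4f3(Δ/+)* samples. The log2 fold change was 0.04 (SE 0.07, adjusted p = 0.907), which was the smallest standard error among the 9 genes. The *Pou4f3(Δ/+)* samples all lay within the wildtype range.

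**Figure D2:**
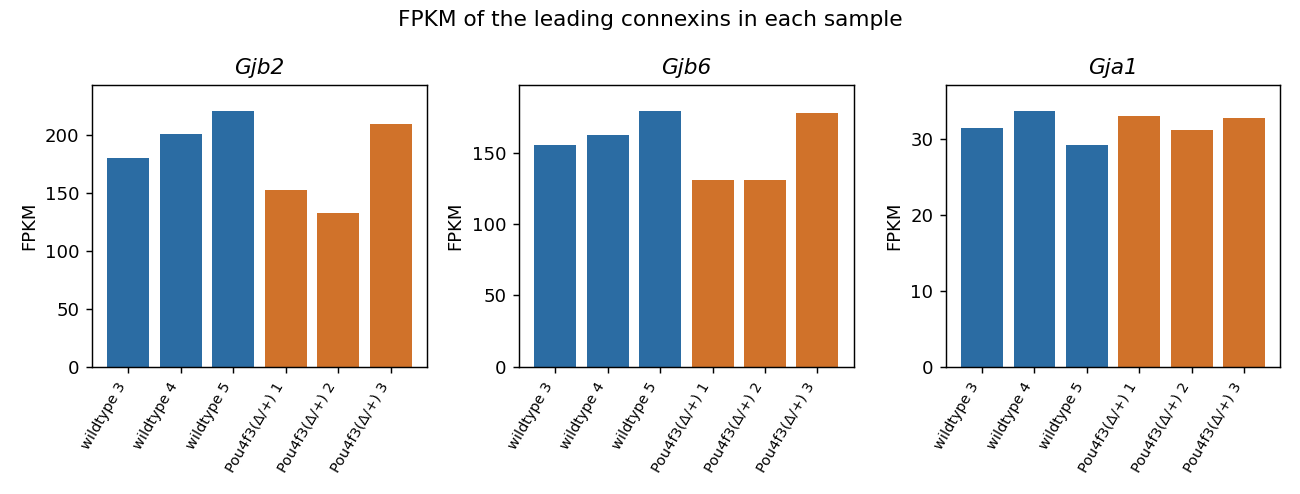
FPKM of *Gjb2*, *Gjb6* and *Gja1* as a bar for each wildtype (blue) and *Pou4f3(Δ/+)* (orange) sample, numbered by replicate, each axis starting at 0. For *Gjb2* and *Gjb6* the bars of *Pou4f3(Δ/+)* 1 and 2 are the lowest, at 153.1 and 132.6 and at 130.9 and 130.7, whereas *Gja1* ranges from 29.2 to 33.8 over all 6 samples.

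The 2 leading genes ranked the 6 samples alike in FPKM, from wildtype 5 through *Pou4f3(Δ/+)* 3, wildtype 4, wildtype 3 and *Pou4f3(Δ/+)* 1 down to *Pou4f3(Δ/+)* 2. On CPM the last 2 changed places for *Gjb6*, at 271.5 and 272.5. *Pou4f3(Δ/+)* replicates 1 and 2 were both below each of the other 4 samples for 3 of the 9 genes, *Gjb2*, *Gjb6* and *Gjc3*, and for 15.8% of all genes tested. The mean of these 2 samples was 0.703 times that of the other 4 in FPKM for *Gjb2*, 0.774 times for *Gjb6* and 0.771 times for *Gjc3*, and it was 1.01 times for *Gja1*.

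Connexin 26 and connexin 30 can join in the same channel, so the balance of their RNAs was also compared. The ratio of *Gjb6* to *Gjb2* FPKM was 0.863, 0.809 and 0.811 in the wildtype samples and 0.855, 0.986 and 0.849 in the *Pou4f3(Δ/+)* samples. *Pou4f3(Δ/+)* replicate 2 was the highest, and the other 2 fell within the wildtype range. The means were 0.828 ± 0.0307 and 0.897 ± 0.0775 (SD, n = 3), a log2 difference of 0.11 (two-sided exact permutation test, p = 0.3, where 3 samples against 3 allow no p below 0.1). The log2 difference was 0.04 without *Pou4f3(Δ/+)* replicate 2 alone, the library that carried most of it, and 0.15 without replicate 1. It was 0.04 without both, with no test.

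The glial connexins overlapped between the genotypes. *Gjc3* (connexin 29, chr5:137953461-137963098) was at 9.57, 10.64 and 9.37 FPKM in the wildtype samples and at 8.90, 6.52 and 10.4 in the *Pou4f3(Δ/+)* samples. *Pou4f3(Δ/+)* replicate 2 was the lowest of the 6, and the log2 fold change was -0.17 (SE 0.16, adjusted p = 0.797). It was -0.0039 without *Pou4f3(Δ/+)* replicate 2 alone, so it rested on that library, and 0.11 without replicates 1 and 2. *Gjb1* (connexin 32, chrX:101376378-101385629), known for its mutation in an inherited neuropathy, was at 4.97, 6 and 4.74 FPKM in the wildtype samples and at 5.35, 3.99 and 5.89 in the *Pou4f3(Δ/+)* samples. *Pou4f3(Δ/+)* replicate 2 was the lowest sample (log2 fold change -0.05, SE 0.19, adjusted p = 0.959). Summed over the 8 Schwann cell markers, CPM was 1988 to 2305 in wildtype and 1716 to 2306 in *Pou4f3(Δ/+)*, with *Pou4f3(Δ/+)* replicates 1 and 2 below the other 4 samples. The part of this in the levels of *Gjc3* and *Gjb1* was not tested.

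The vascular connexins rested on few counts. *Gja4* (connexin 37 of arterial endothelium, chr4:127311421-127314039) had 37, 42 and 47 counts in the wildtype samples and 38, 33 and 26 counts in the *Pou4f3(Δ/+)* samples, which came to 1.27, 1.74 and 1.62 FPKM and to 1.27, 1.26 and 1.05 FPKM. The highest *Pou4f3(Δ/+)* value was level with the lowest wildtype value. Its log2 fold change of -0.36 (SE 0.26, adjusted p = 0.734) was the lowest of the 9 genes, and it stayed below 0 in all 14 alternative settings, from -0.57 to -0.21, with no adjusted p under 0.675. Unlike for *Gjb2*, *Pou4f3(Δ/+)* replicate 3 was the lowest sample.

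*Gja5* (connexin 40, also of arterial endothelium and of the heart's conduction system) had 26, 19 and 34 counts in the wildtype samples and 22, 32 and 23 counts in the *Pou4f3(Δ/+)* samples. The groups overlapped fully in FPKM, at 0.43 to 0.64 and 0.40 to 0.66, and the log2 fold change was 0.01 (SE 0.33, adjusted p = 0.993). The span of its counted transcript, ENSMUST00000072600, overlaps that of the antisense gene 4930573H18Rik, which was not analysed here. Their exons were not compared, and the strand setting of the counting is not given in the sources used here. Whether reads of that gene are among those of *Gja5* was therefore not tested.

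*Gjc1* (connexin 45, chr11:102799579-102819700), known from pacemaker tissue and smooth muscle, was at 2.48, 2.78 and 3.88 FPKM in the wildtype samples and at 3.39, 2.35 and 2.89 in the *Pou4f3(Δ/+)* samples. These values overlapped between genotypes (log2 fold change -0.09, SE 0.24, adjusted p = 0.935). Beside these vascular genes, the CPM summed over 5 arterial endothelial markers was 98.2 to 109.9 in wildtype samples and 84.3 to 100.4 in *Pou4f3(Δ/+)* samples, and over 6 smooth muscle and pericyte markers 419.9 to 509.8 and 340.8 to 456.7. In both lists *Pou4f3(Δ/+)* replicates 1 and 2 were below the other 4 samples. An unadjusted p under 0.05 was found for 2 of the 5 and 3 of the 6, all lower, beside 7.64% of all genes, and 0 were called. The list medians of the log2 fold change were -0.13 and -0.36, and 0.01 and -0.05 without these replicates. The part of these cell types in the vascular connexins was not tested.

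*Panx1* (chr9:15002128-15045478) was at 5.16, 5.39 and 5.64 FPKM in the wildtype samples and at 5.45, 5.71 and 5.76 in the *Pou4f3(Δ/+)* samples. All 6 samples lay close together. The sign of its difference depended on the unit, with a mean of 5.64 against 5.40 FPKM but a log2 fold change of -0.06 in the counts (SE 0.12, adjusted p = 0.920).

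**Figure D3:**
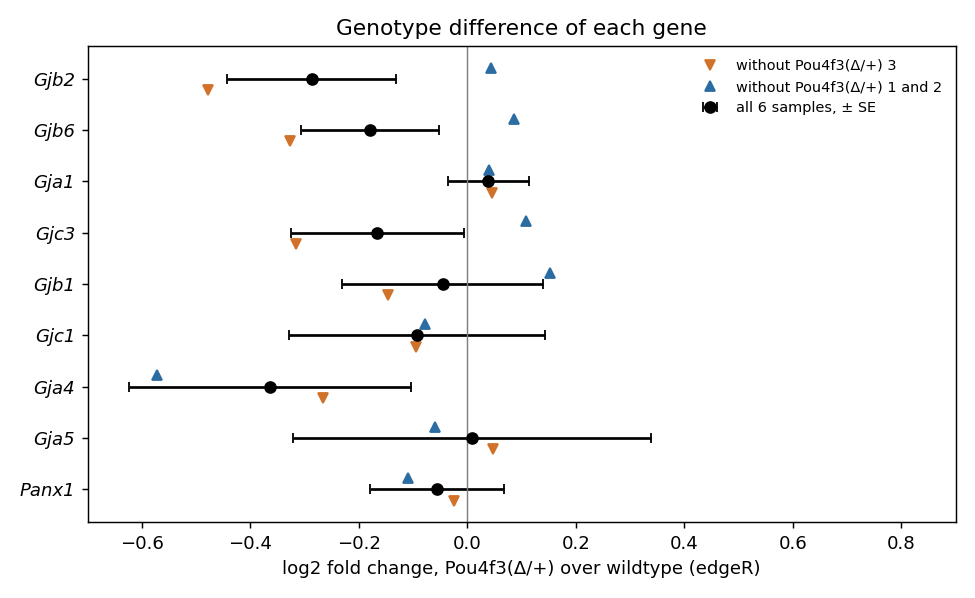
Log2 fold change of each gene, *Pou4f3(Δ/+)* over wildtype, from edgeR with all 6 samples (black points, bars ± SE), without *Pou4f3(Δ/+)* replicate 3 (orange) and without *Pou4f3(Δ/+)* replicates 1 and 2 (blue). For *Gjb2* the value moves from -0.48 to 0.04 with the samples left out, whereas *Gja1* stays near 0.04.

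Within genes, the transcripts were examined as well. The files list 30 transcripts of the 9 genes, of which 21 had a count and 14 passed the filter on low counts. None of the 14 was called and 0 had an unadjusted p under 0.05, in edgeR's test per transcript, where 4.14% of 38347 transcripts had one, and DESeq2 called 0 of them. Over all transcripts edgeR called 0 and DESeq2 called 130, or 0.339%. *Gjb2*, *Gja4* and *Gja5* were represented by a single transcript, and the counts of *Gjb1* came from ENSMUST00000119190. *Gjb6* came almost wholly from ENSMUST00000039380, with 96.6% of its wildtype FPKM and 96.9% in *Pou4f3(Δ/+)*. ENSMUST00000160703 added 3.00% in wildtype. ENSMUST00000162931, with 201 bases, stood at 0.677 ± 0.932 FPKM in wildtype on 0, 5 and 1 counts. It had 0, 2 and 4 counts in *Pou4f3(Δ/+)* and was too low in counts to be tested. *Gja1* was 99.2% ENSMUST00000068581. *Gjc3* was 88.3% ENSMUST00000077119, and the remainder, 1.15 FPKM in wildtype and 0.79 in *Pou4f3(Δ/+)*, was a retained intron transcript, ENSMUST00000199083.

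*Gjc1* was the gene whose transcripts were divided differently between samples. ENSMUST00000092567 was at 2.41, 0.82 and 2.88 FPKM in the wildtype samples and at 0.77, 0 and 0.90 in the *Pou4f3(Δ/+)* samples. ENSMUST00000068933 was at 0, 1.37 and 0 FPKM in wildtype and at 2.42, 2.12 and 1.64 in *Pou4f3(Δ/+)*. The second transcript did not overlap between genotypes and was higher in *Pou4f3(Δ/+)*, but wildtype replicate 4 held both. It was 1 of the 14 tested transcripts without overlap in FPKM, beside 10.5% of all transcripts tested. As a share of the gene it was 15% in wildtype and 71.6% in *Pou4f3(Δ/+)*. Another coding transcript, ENSMUST00000107075, was too low in counts to be tested, at 0, 0.31 and 0.69 FPKM in wildtype samples and at 0, 0 and 0.01 in *Pou4f3(Δ/+)* samples. It held 10.9% of the gene in wildtype and 0.116% in *Pou4f3(Δ/+)*. The test called neither, with log2 fold changes of -1.88 (SE 1.15) and 2.21 (SE 1.56), both with an adjusted p of 0.999. These transcripts have 1693 spliced bases in common, and 197 and 210 bases set them apart, so the counts divided between them are estimates from few reads. The summed count of the gene does not depend on that division, but its summed FPKM does, since each transcript is scaled by its own length.

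*Panx1* was divided mainly between the coding transcript ENSMUST00000164273, with 1.75 ± 0.0971 FPKM in wildtype and 1.61 ± 0.382 in *Pou4f3(Δ/+)*, and ENSMUST00000056755. The latter is annotated as a target of nonsense-mediated decay and held 60.5% of the gene's wildtype FPKM and 58.3% in *Pou4f3(Δ/+)*. A short coding transcript of 357 bases, ENSMUST00000169288, was at 0.27 ± 0.246 and 0.617 ± 0.307 FPKM, and it was too low in counts to be tested.

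**Figure D4:**
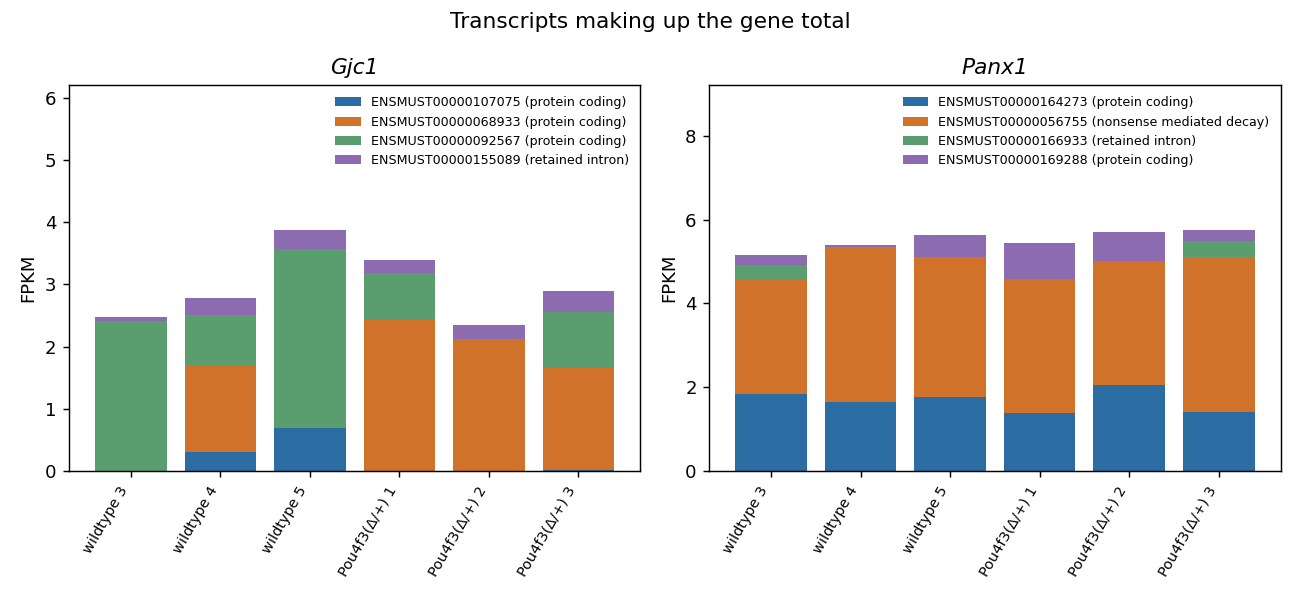
Transcripts of *Gjc1* and *Panx1* stacked to the gene's FPKM in each sample. In *Gjc1* the transcript ENSMUST00000068933 (orange) is at 0 in wildtype 3 and 5, at 1.37 in wildtype 4 and at 1.64 to 2.42 in *Pou4f3(Δ/+)*, while the *Panx1* totals stay between 5.16 and 5.76.

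Of the 14 other connexins and pannexins listed, 5 passed the filter on low counts and 0 were called. *Panx2*, a neuronal pannexin and the highest of them, was at 8.05, 9.47 and 9.29 FPKM in the wildtype samples and at 7.75, 6.05 and 8.59 in the *Pou4f3(Δ/+)* samples. Its *Pou4f3(Δ/+)* replicates 1 and 2 were again the lowest (log2 fold change -0.26, SE 0.13, adjusted p = 0.653, and -0.08 without them). *Panx3*, known from bone and cartilage cells, was at 5.15, 5.37 and 6.40 FPKM in the wildtype samples and at 1.53, 1.40 and 5.21 in the *Pou4f3(Δ/+)* samples. The first 2 of these *Pou4f3(Δ/+)* samples were far below the rest, at 0.265 times the mean of the other 4, and the third lay within the wildtype range in FPKM but, at 12.04 CPM, below the wildtype samples at 12.59 to 16.07 CPM. The log2 fold change was -1.10 (SE 0.42, adjusted p = 0.643, with an unadjusted p under 0.05), and it was -0.19 without *Pou4f3(Δ/+)* replicates 1 and 2. *Gjd2*, known from neurons, stood at 1.55 FPKM in wildtype.

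Beside *Panx3*, 6 of the 8 bone cell markers were lower in *Pou4f3(Δ/+)*, beside 50.6% of all genes, with a median log2 fold change of -0.16, and 0 were called. Of these, 3 had an unadjusted p under 0.05, beside 7.64% of all genes, and all markers named here were named after their values were seen. The log2 fold changes of the 3 were -0.75 for *Col1a1*, -0.63 for *Sp7* and -1.07 for *Alpl*, and without *Pou4f3(Δ/+)* replicates 1 and 2 they were -0.38, -0.61 and -0.48. The other 2 markers were *Bglap* at 0.38 and *Spp1* at 0.32, and without these replicates *Bglap* was at 0.98 while *Spp1* turned to -0.11. Over the list 7 of 8 were then lower, with a median of -0.25, in a fit where replicate 3 was the only *Pou4f3(Δ/+)* sample. The CPM summed over this list was 5347 to 6567 in wildtype samples and 4911 to 7627 in *Pou4f3(Δ/+)* samples, and the mean of *Pou4f3(Δ/+)* replicates 1 and 2, where *Panx3* was low, was 1.24 times that of the other 4 samples. With *Spp1*, the most abundant of the list, taken off, it was 0.859 times. Their part in the level of *Panx3* was not tested. The 9 other listed connexins were below the filter, each at no more than 0.15 FPKM in a sample. *Gjd3*, *Gjd4* and *Gje1* had 0 counts, and 3 counts would correspond to at most 0.251, 0.0789 and 0.142 FPKM in the sample where a count weighs most.

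Proteins that bind connexins or steer them to the membrane were measured in 13 genes, all of which were tested and 0 called. Of these 12 were lower and 1 was higher in *Pou4f3(Δ/+)*, with a median log2 fold change of -0.12, beside 50.6% lower over all genes, and 1 had an unadjusted p under 0.05, beside 7.64%. Their summed CPM in *Pou4f3(Δ/+)* replicates 1 and 2 was 0.903 times the mean of the other 4 samples, and without these replicates 9 were lower and 4 higher, with a median of -0.03. The gene with an unadjusted p under 0.05 was *Vim*, which encodes the intermediate filament protein vimentin and was the highest of the list. It was at 276.4, 220.1 and 254.9 FPKM in the wildtype samples and at 204.0, 196.3 and 224.2 in the *Pou4f3(Δ/+)* samples. Its highest *Pou4f3(Δ/+)* value lay just above its lowest wildtype value (log2 fold change -0.25, SE 0.10, adjusted p = 0.643, and -0.16 without *Pou4f3(Δ/+)* replicates 1 and 2). In CPM, *Src* was lower in each *Pou4f3(Δ/+)* sample than in each wildtype sample, and *Cnst*, the connexin recycling gene consortin, was higher. Both were singled out after their values were seen, and neither had an unadjusted p under 0.05. These are 2 of 13 genes, beside the 12.7% of all genes without overlap.

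The potassium route on which the gap junctions are thought to lie was represented by 14 channels, pumps and transporters. None was called, 13 of the 14 were lower in *Pou4f3(Δ/+)*, the median log2 fold change was -0.12, and 4 had an unadjusted p under 0.05, all lower, beside 50.6% lower and 7.64% with such a p over all genes. Their summed CPM in *Pou4f3(Δ/+)* replicates 1 and 2 was 0.868 times the mean of the other 4 samples. Without these replicates the list turned, with 5 lower and 9 higher and a median of 0.06. In CPM 3 of the 14 did not overlap between the genotypes with *Pou4f3(Δ/+)* lower, beside 6.59% of all genes. These 3 were *Kcne1*, *Kcnq1* and *Atp1b2*, which act at the stria vascularis, where potassium is secreted into the endolymph.

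*Kcne1*, the accessory subunit of the secretory potassium channel, was at 47.13, 47.71 and 49.33 FPKM in the wildtype samples and at 28.35, 15.95 and 34.71 in the *Pou4f3(Δ/+)* samples. Each *Pou4f3(Δ/+)* sample was below the wildtype samples (log2 fold change -0.84, SE 0.24, adjusted p = 0.643). *Kcnq1*, the pore subunit of that channel, was at 14.99, 14.25 and 14.4 FPKM in wildtype and at 9.79, 9.52 and 13.17 in *Pou4f3(Δ/+)*, in the same order of replicates. It too did not overlap, though *Pou4f3(Δ/+)* replicate 3 came close (log2 fold change -0.45, SE 0.13, adjusted p = 0.643). *Atp1b2*, a beta subunit of the sodium-potassium pump, was at 162.6, 180.1 and 174.4 FPKM in wildtype and at 122.9, 102.7 and 147.8 in *Pou4f3(Δ/+)* (log2 fold change -0.49, SE 0.12, adjusted p = 0.643).

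*Aqp4*, a water channel of supporting cells, was at 11.63, 13.21 and 14.02 FPKM in the wildtype samples and at 7.82, 7.24 and 12.94 in the *Pou4f3(Δ/+)* samples. As for *Gjb2* and *Gjb6*, the third *Pou4f3(Δ/+)* sample was within the wildtype range and the others below it (log2 fold change -0.48, SE 0.19, adjusted p = 0.643). The fitted differences of *Gjb2* and *Gjb6* from 0 were smaller than those of *Kcne1*, *Kcnq1*, *Atp1b2* and *Aqp4*. These 4 were named for an unadjusted p under 0.05 in the same data, so that comparison was settled by the choice. The other genes of the list lay nearer to 0 than *Gjb2* at -0.29, the next being *Slc26a4* at -0.19. Without *Pou4f3(Δ/+)* replicates 1 and 2 the log2 fold changes were -0.33 for *Kcne1*, -0.17 for *Kcnq1*, -0.27 for *Atp1b2* and -0.02 for *Aqp4*.

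**Figure D5:**
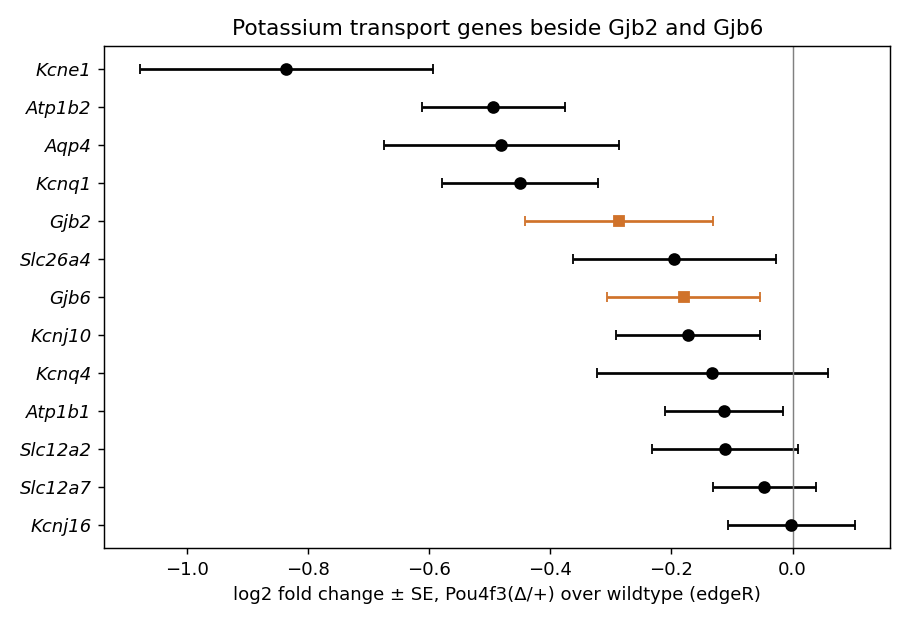
Log2 fold change ± SE, *Pou4f3(Δ/+)* over wildtype, from edgeR for genes of the potassium route list (black), *Aqp4* included, and for *Gjb2* and *Gjb6* (orange), ordered by value. *Kcne1* is lowest at -0.84, and *Gjb2* at -0.29 and *Gjb6* at -0.18 are nearer to 0 than *Kcne1*, *Atp1b2*, *Aqp4* and *Kcnq1*. *Gjb2* is further from 0 than the rest of the list shown, where *Slc26a4* at -0.19 is the next.

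Connexin and pannexin channels release ATP, which acts on purinergic receptors and is broken down by ectonucleotidases. Of 13 such genes 12 were tested and 0 called, 8 were higher and 4 lower in *Pou4f3(Δ/+)*, and the median log2 fold change was 0.05. The highest of the list was *P2rx4*, an ATP-gated cation channel, at 18.03, 18.16 and 24.66 FPKM in the wildtype samples and at 18.48, 17.44 and 18.4 in the *Pou4f3(Δ/+)* samples. Wildtype replicate 5 was the only sample that differed by much (log2 fold change -0.21, SE 0.11, adjusted p = 0.663, and -0.13 without *Pou4f3(Δ/+)* replicates 1 and 2). *P2rx3*, singled out after its values were seen, did not overlap between genotypes in CPM, at 0.35 to 0.55 FPKM in wildtype samples and 0.71 to 1.14 in *Pou4f3(Δ/+)* samples, and its adjusted p was 0.679. In CPM 1 of the 12 tested, *P2rx3*, did not overlap, beside 12.7% of all genes. In FPKM 3 of the 12 did not overlap, beside 12.1% of all genes, namely *P2rx3* and *P2rx7* higher and *Entpd2* lower in *Pou4f3(Δ/+)*. *P2rx7*, another ATP-gated channel, was at 5.29, 5.99 and 5.40 FPKM in wildtype samples and at 7.02, 6.52 and 7.11 in *Pou4f3(Δ/+)* samples, but its CPM overlapped, with a log2 fold change of -0.04.

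The cell types that carry the leading connexins were followed by marker lists. The CPM summed over 10 supporting cell markers was 482.0 to 555.6 in wildtype samples and 485.1 to 555.6 in *Pou4f3(Δ/+)* samples. There *Pou4f3(Δ/+)* replicates 1 and 2 were neither both below nor both above the other 4 samples. Of these markers 6 were higher and 4 lower, with a median log2 fold change of 0.12, beside 50.6% lower over all genes. Without these replicates 9 were higher and 1 lower, with a median of 0.19, beside 51.3% lower. Over 6 markers of spiral ligament fibrocytes the summed CPM was 6936 to 9132 and 6244 to 6979. *Pou4f3(Δ/+)* replicates 1 and 2 were below the other 4 samples there, at 0.841 times their mean. By gene, in FPKM, both were below the other 4 for *Car3*, *Slc4a11* and *Tbx18*, but not for *Otos*, *Pou3f4* and *Coch*, the most abundant of the list. No marker of either list was called, and *Slc4a11*, named after its values were seen, was the only one with an unadjusted p under 0.05. Summed markers of B cells were higher in each *Pou4f3(Δ/+)* sample than in each wildtype sample, while those of red blood cells overlapped, with 379.4 to 421.3 CPM in wildtype and 428.1 to 737.4 in *Pou4f3(Δ/+)* over 9 B cell markers, and 8608 to 9978 and 9344 to 13262 over 7 red blood cell markers. Of these 8 of the 9 and 2 of the 7 had an unadjusted p under 0.05, all higher, beside 7.64% of all genes, and 0 were called. The 2 lists had median log2 fold changes of 0.84 and 0.36. Without *Pou4f3(Δ/+)* replicates 1 and 2, which leaves 1 *Pou4f3(Δ/+)* sample, the medians were 0.14 and 0.01. In both lists *Pou4f3(Δ/+)* replicates 1 and 2 were above the other 4 samples, at 1.74 and 1.35 times their mean. The part of these cell types in the lower *Gjb2* and *Gjb6* of the same 2 samples was not tested.

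Summed CPM of the other lists was 366.2 to 418.2 in wildtype and 360.3 to 383.0 in *Pou4f3(Δ/+)* for 8 endothelial markers, 2228 to 2430 and 1825 to 2446 for 7 neuron markers, where *Pou4f3(Δ/+)* replicates 1 and 2 were below the other 4 samples at 0.813 times their mean, and 133.2 to 141.2 and 120.9 to 141.1 for the 8 hair cell markers tested. No gene of these lists was called, and the part of neurons in the level of *Panx2* was not tested.

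The genes whose pattern over the 6 samples was most like that of the 2 leading connexins were found by the root mean square difference of log2 CPM after each gene's mean was taken off. For *Gjb2* these were *Eef1a2*, a translation elongation factor of neurons and muscle, at 0.0361, and *Moxd1*, at 0.0428, where the median over all genes was 0.302. *Eef1a2* was at 55.3, 60.5 and 64.9 FPKM in the wildtype samples and at 45.5, 39.9 and 59.6 in the *Pou4f3(Δ/+)* samples, lowest in the same 2 samples. For *Gjb6* they were *C1ql3*, a secreted protein of the C1q family, at 0.0174, and *Kcnj10*, at 0.0211, where the median was 0.243. *Kcnj10*, the inward rectifier potassium channel of glia-like supporting cells and strial intermediate cells, was at 35.5, 37.3 and 41.5 FPKM in wildtype and at 31.3, 29.7 and 40.7 in *Pou4f3(Δ/+)*. *Gjb2* and *Gjb6* lay at 0.0933 from each other, which was the 143rd place for *Gjb2* and the 368th for *Gjb6* among all genes. All genes were compared over the same 6 libraries, including the split of *Pou4f3(Δ/+)* replicates 1 and 2, so these likenesses are descriptions only.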

How the data were processed

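Bulk RNA-seq libraries of cochlear RNA (RIN above 6.5) were made after poly(A) selection or rRNA removal, both of which the methods name, and sequenced as paired 150-base reads. The authors deposited FPKM and an expected count, an estimate that can be fractional, for each of 128603 transcripts per sample. The submitters' processing notes name DESeq2 and build mm8, but the listed transcripts were found in GENCODE M21 (GRCm38), from which coordinates were taken. The aligner and counting program are not given in the sources used here. Expected counts and FPKM were summed per gene symbol. Counts were rounded and tested with edgeR 4.0.16 (R 4.3.3; filterByExpr with minimum count 10 and minimum total count 15, TMM, quasi-likelihood test, Benjamini-Hochberg over all genes, threshold 0.05). CPM used the same factors, with a prior count of 2 on the log2 scale. Levels between genes used FPKM. Alternatives used DESeq2 1.42.0 and limma 3.58.1, and the permutation test SciPy 1.17.1. The edgeR test was checked on simulated data.

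The genes and lists were chosen with earlier results of these data known. Named were the 9 genes, genes of the 4 function lists with an unadjusted p under 0.05 or the highest wildtype FPKM of the list, transcripts of at least 0.5 FPKM in a group, and the 2 genes nearest in pattern to *Gjb2* and to *Gjb6*. Some items that this rule or the lists select are not reported here. Depth was 14295069 to 17696784 counts per sample. Counts at or below 3 are at the floor, which covers counting error only.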

Additional observations from a re-analysis of the deposited data

How the results depend on the processing

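None of the 9 genes and none of their tested transcripts was called under DESeq2, DESeq2 size factors in edgeR or no filter. The same held with a mean FPKM of at least 1 (which left out *Gja5*) and limma-trend on log2(FPKM + 0.5), + 0.1 or + 1. It also held with an adjusted p threshold of 0.1 and with any single sample left out. Without *Pou4f3(Δ/+)* replicates 1 and 2 a single *Pou4f3(Δ/+)* sample remains, so calls are not counted for that setting. DESeq2 gave no adjusted p for *Gja4* and *Gja5*. Over all genes the 0 calls became 64 with DESeq2, 9 with no filter, 1 with limma-trend on log2(FPKM + 0.1), 6 without *Pou4f3(Δ/+)* replicates 1 and 2, and 0 to 193 with single samples left out, the highest without *Pou4f3(Δ/+)* replicate 3.

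Some log2 fold changes turned sign, and not only those near 0: that of *Gjb2* was -0.29 with all samples. Without *Pou4f3(Δ/+)* replicates 1 and 2 they were 0.043 for *Gjb2*, 0.0867 for *Gjb6*, 0.152 for *Gjb1*, 0.108 for *Gjc3* and -0.0591 for *Gja5*. With single samples left out they ranged from -0.147 to 0.0915 for *Gjb1*, -0.0098 to 0.0897 for *Gja1*, -0.213 to 0.192 for *Gja5*, -0.250 to 0.147 for *Gjc1* and -0.156 to 0.0131 for *Panx1*. In FPKM, *Panx1* was at 0.0588, 0.0630 and 0.0542 with pseudocounts of 0.5, 0.1 and 1. Its 357-base transcript ENSMUST00000169288 was at 0.27 FPKM in wildtype and 0.617 in *Pou4f3(Δ/+)*, on at most 5.56 counts in a sample. The cause of these turns of sign was not tested.

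The order of the connexins was the same with counts per spliced length, with the most abundant transcript, and with each wildtype sample left out. The log2 ratio of *Gjb6* to *Gjb2* stayed between 0.04 and 0.15 higher in *Pou4f3(Δ/+)*. Leaving out *Pou4f3(Δ/+)* replicates 1 and 2 for this ratio, for some named genes of the other lists and for the counts of lists was chosen after seeing the data. It did not turn the sign of the ratio, and of the genes of other lists given both ways it turned *Spp1*, to -0.1095. The median log2 fold change of the 9 genes went from -0.09 to 0.04 and that of the potassium route from -0.12 to 0.06. Leaving *Spp1* out of the bone markers was also chosen after seeing the data. No paired analysis was possible because the genotypes share a single replicate number. Genes under about 50 counts, *Gja4* and *Gja5*, allow only large differences to be seen, with standard errors of 0.26 and 0.33.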
